A study of Macaca fascicularis with 2 samples.

Results

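Proliferating somatic cells of the fetal ovary were taken from a table of single-cell RNA counts by the genes they express. A cell was kept when it had at least 5 unique molecular identifiers (UMIs, each standing for 1 captured RNA molecule) summed over MKI67, CENPF, CDK1, CCNA2 and SGO1, with at least 3 of these 5 genes detected and at least 5 of their UMIs per 10000 UMIs of the cell. It also had to have 0 UMIs of the 3 germ cell genes DAZL, DDX4 and SYCE3. Of 20967 cells, 363 met these criteria. The cells came from whole ovaries of Macaca fascicularis fetuses, aged E84 in 1 library and E116 in the other, and each library pools the left and right ovary of a single animal. The table does not say which cell belongs to which stage. Its barcodes end in 1 or in 2, so the endings are set side by side only as technical batches with no stage given, and the stages are not compared. Cells are not replicates, and no test was made. Levels are summed UMIs scaled to counts per 1000000 (CPM) with an exact 95% Poisson interval in brackets, shares have an exact 95% binomial interval, and both intervals cover counting error only.

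Dividing cells copy their DNA in S phase, prepare in G2 and separate the copies in mitosis. Each step has its own genes, with the replication helicase and nucleotide enzymes made for S phase and the spindle, kinetochore and cyclin B genes for G2 and mitosis. In a fetal ovary the somatic compartment grows by division of stromal cells, of the supporting cells that become granulosa cells, of the surface epithelium and of blood vessels, while germ cells divide beside them and then enter meiosis.

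The members had a median of 9132 UMIs (1010 to 61817) and 2991 genes, against 3396.5 UMIs and 1424 genes over the 12464 cells without a germ cell UMI. Detected genes exceeded 3000 in 180 of the 363 members (49.6%), and in 15.1% of all cells without a germ cell UMI. The whole table holds 148824177 UMIs, and the members hold 4513064 of them. Barcodes of 134 members ended in 1 and of 229 in 2. Only 27 barcodes occurred under both endings, 2 of them in members.

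The 5 genes of the rule chose these cells, so their levels are a description. CENPF, a kinetochore protein of late cycle, was detected in 360 of 363 members with a median of 8 UMIs. MKI67, the coat protein of mitotic chromosomes, was detected in 342 members with a median of 4 UMIs. CDK1, the kinase that starts mitosis, was detected in 293, CCNA2, its S phase and G2 cyclin, in 279 and SGO1, the guardian of centromere cohesion, in 247. The summed UMIs of the 5 genes had a median of 18 and ranged from 5 to 115. All 5 genes were detected in 148 members and exactly 3 in 79. Just inside the limits, 24 members had exactly 5 UMIs and 21 had 5 to 6 per 10000. Just outside stood 16 cells with 4 UMIs, 72 with only 2 of the genes, and 14 with 4 to 5 per 10000.

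**Figure D1:**
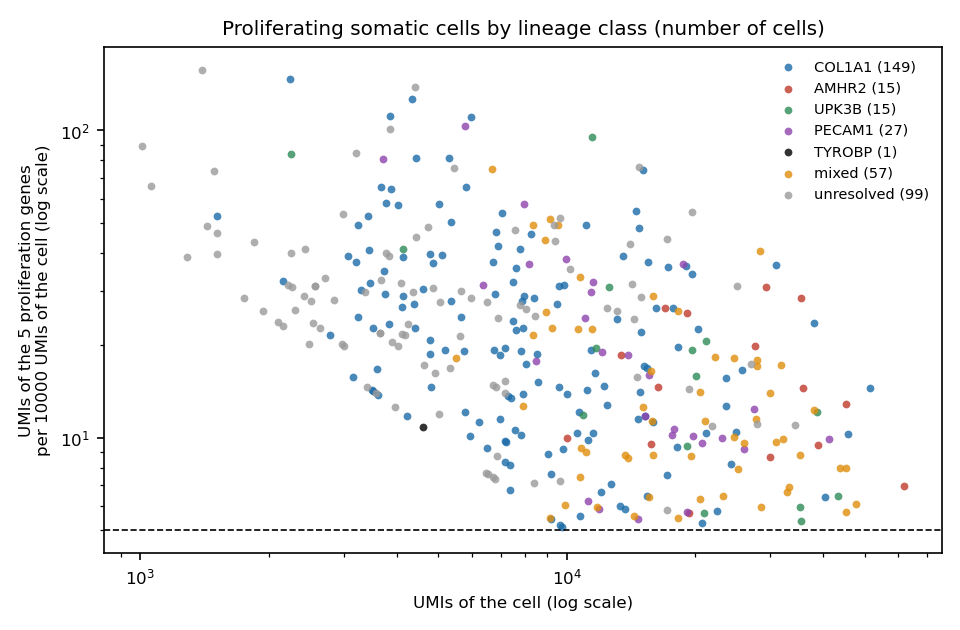
Summed UMIs of MKI67, CENPF, CDK1, CCNA2 and SGO1 per 10000 UMIs of the cell (vertical, log scale) against the UMIs of the cell (horizontal, log scale), 1 point for each of the 363 members, coloured by lineage class with the number of cells. The dashed line is the limit of 5 per 10000; the 15 AMHR2-class cells lie above 10000 UMIs, and the 99 unresolved cells have the lowest median, 4428 UMIs.

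Of 1590 cells that met the proliferation criteria whatever their germ cell UMIs, 1042 had 3 or more of them, 119 had 1 and 66 had 2. In the AMHR2 and PECAM1 classes the condition left out more cells than it kept. Besides the 15 members, 7 proliferating AMHR2-class cells had 1 germ cell UMI and 76 had 3 or more. The PECAM1 class had 27 members, 4 cells with 1 and 33 with 3 or more. The COL1A1 class had 149 members, 30 cells with 1 and 28 with 3 or more. Whether the cells with 3 or more are somatic was not tested. The germ cell panel of 11 genes stood at 38.3 CPM in the members and at 1156 CPM in the 1042 cells with 3 or more germ cell UMIs. A UMI of that panel was found in 117 of 363 members and in 1028 of those 1042 cells.

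Lineage was read from 1 gene for each type. COL1A1, the main fibrillar collagen of stroma, placed 149 members (41.0%, 35.9 to 46.3) in a stromal class. AMHR2, the receptor of anti-Müllerian hormone on granulosa cells, placed 15 (4.13%, 2.33 to 6.72), and UPK3B, a uroplakin of the ovarian surface epithelium, also 15. PECAM1, an adhesion molecule of endothelium, placed 27 (7.44%, 4.96 to 10.6), and TYROBP, an adaptor of myeloid and natural killer cells, a single cell. UPK3B took cells that also passed for AMHR2. Beyond that, a further 57 members passed for more than 1 gene, and 99 for none.

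The classes were then set against marker panels. The stroma, supporting, surface epithelium, endothelial and macrophage panels each hold the gene that set the matching class. Their levels and leads in that class are therefore partly fixed by the class rule and are a description. A panel led in a cell when at least 3 of its genes were detected and its mean relative level was at least 2 and at least 2 times the next. In the PECAM1 class the endothelial panel stood at 2325 CPM, against 16.4 CPM in the COL1A1 class, and led the panels in 27 of 27 cells. CDH5, the cadherin of endothelial junctions, was in all 27 cells, while CLDN5 had 1 UMI among them. The stroma panel stood at 15025 CPM in the COL1A1 class and at 975 CPM in the AMHR2 class. Supporting cell markers reached 925 CPM in the AMHR2 class against 170 CPM in the COL1A1 class, and their panel led in 6 of 15 AMHR2-class cells, with no clear lead in the other 9. FOXL2, a defining transcription factor of granulosa cells, was nearly absent, with a UMI in 2 of 15 AMHR2-class cells and in 7 of 363 members. The surface epithelium panel led in 13 of 15 UPK3B-class cells. The lone TYROBP-class cell had the lymphocyte panel in the lead, so the label macrophage was not borne out for it. Among the 149 COL1A1-class cells the stroma panel led in 56, the pericyte panel in 12, and no panel led clearly in 71.

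All 57 of these cells passed for COL1A1. Cells that passed for AMHR2 and UPK3B alone are not among them, since they were placed in the UPK3B class. COL1A1 and UPK3B were passed together by 18 of the 57, COL1A1 and AMHR2 by 16, and all 3 by 15, while 6 passed COL1A1 and PECAM1. The 57 had a median of 18228 UMIs, against 7605 in the COL1A1 class. Detected genes exceeded 3000 in 52 of the 57 and in 61 of the 149 COL1A1-class cells. Whether some of the 57 are doublets, with several cells under the same barcode, was not tested. COL1A1 had a UMI in 129 of 133 non-proliferating UPK3B cells, so all members that passed UPK3B without PECAM1 or TYROBP, 48 cells, were also described together as UPK3B cells, a choice made after the values were seen. COL1A1 stood at 899.8 CPM (839 to 964) in these 48 and at 1493 CPM (1433 to 1555) in the 133. Free COL1A1 RNA was not separated from this.

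The 99 unresolved members were divided further, again after their values were seen. INHBB, the βB subunit of inhibin and activin made by granulosa cells, had at least 3 UMIs in 22 of them, 21 with barcodes ending in 2. These 22 had INHBB at 1254 CPM (1129 to 1389), CYP19A1 at 386 CPM (318 to 464) and FST at 782 CPM (684 to 890), with AMHR2 at 17.1 CPM and in 5 cells. Their mitochondrial share had a median of 16.7%, against 7.74% over all members. Globin transcripts made up 5.80%, 36.3%, 38.8% and 42.9% of the UMIs in 4 unresolved members. A further 6, all with barcodes ending in 2, had UMIs of PTPRC, the pan-leukocyte phosphatase, and 4 of these also had CD3E, of the T cell receptor complex. JCHAIN, the joining chain of secreted antibody, had 314 UMIs in another of the 6. The other 67 passed for none of these genes. In them UMIs of the endothelial panel were found in 10 cells and of the pericyte panel in 31, and the germ cell panel stood at 197 CPM, with a UMI in 30 cells, at a median of 3762 UMIs per cell. Whether some of these are shallow germ cells was not tested.

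How often a cell of each class was proliferating was compared at equal depth, because deeper cells pass a UMI limit more easily. Each cell without a germ cell UMI was thinned to 3000 UMIs, shallower cells were left out, and a cell with at least 3 UMIs over the 5 genes was counted. The genes are those of the rule, so these shares are a description. Only the count of the 5 genes was taken at equal depth, since the classes were set at full depth. The classes are also unlike in make-up. UPK3B cells include those that also passed for COL1A1 or AMHR2, while the COL1A1, AMHR2 and PECAM1 classes leave out cells that passed for several genes. The share was 21 of 218 cells (9.63%, 6.06 to 14.3) in the PECAM1 class, leaving out 31, and 39 of 487 UPK3B cells (8.01%, 5.76 to 10.8), leaving out 70. It was 135 of 2687 (5.02%, 4.23 to 5.92) in the COL1A1 class, leaving out 1437, and 15 of 803 (1.87%, 1.05 to 3.06) in the AMHR2 class, leaving out 57. The TYROBP class had 0 of 35 cells, which allows a share of up to 10.0%, too few to place. Cells that passed for several genes, some of them counted among the UPK3B cells, had 50 of 983 (5.09%, 3.80 to 6.65), leaving out 41. Without thinning, the members made up 10.8%, 8.62%, 3.61% and 1.74% of the PECAM1, UPK3B, COL1A1 and AMHR2 cells. The log2 ratio of the thinned share in the COL1A1 class over the AMHR2 class was 1.43.

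Both barcode endings gave the COL1A1 class a higher share than the AMHR2 class. Under ending 1 it was 61 of 909 (6.71%, 5.17 to 8.54) against 2 of 176 (1.14%, 0.14 to 4.04), and under ending 2 it was 74 of 1778 (4.16%, 3.28 to 5.20) against 13 of 627 (2.07%, 1.11 to 3.52). Intervals overlapped in the second case. Adding the INHBB cells to the supporting class gave 35 of 881 (3.97%, 2.78 to 5.48), whose interval overlapped that of the COL1A1 class, with a log2 ratio of 0.34. The INHBB limit was chosen from unresolved members after their values were seen. It took the class from 860 to 960 cells and its members from 15 to 37. Shares of the widened class, and their order beside the COL1A1 class, are therefore partly set by that choice. The widened class had 3 of 192 under ending 1 (1.56%, 0.323 to 4.50), still below the COL1A1 class, and 32 of 689 under ending 2 (4.64%, 3.20 to 6.49), where the order turned and the intervals overlapped. With cells of at most 10% mitochondrial UMIs alone, the log2 ratio was 0.0985.

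**Figure D2:**
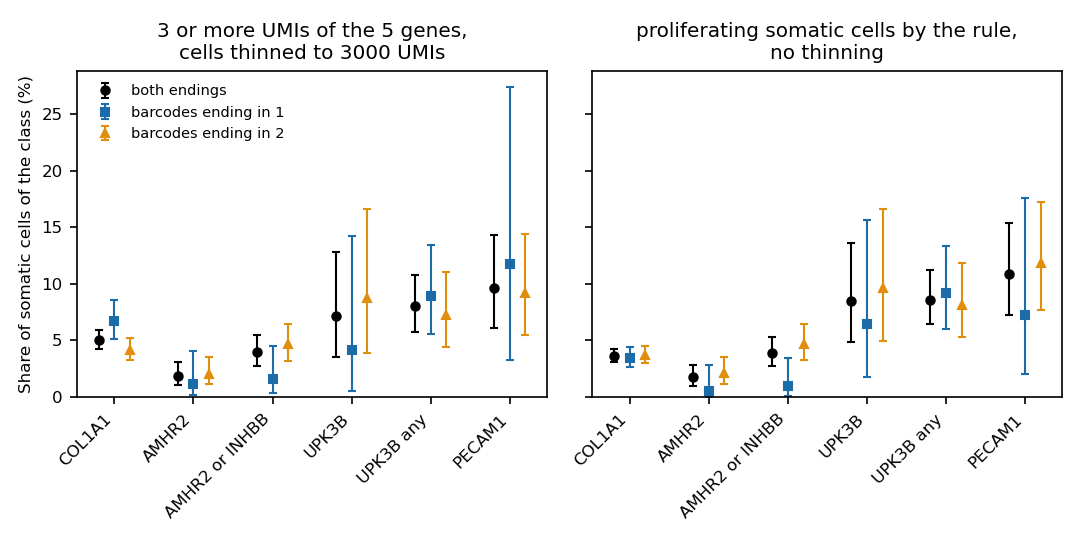
Share of cells without a germ cell UMI in the COL1A1, AMHR2, widened AMHR2, UPK3B and PECAM1 classes (vertical, %) that had at least 3 UMIs of the 5 genes after thinning to 3000 UMIs (left) or that met the rule unthinned (right), for both barcode endings together and for each; bars are exact 95% binomial intervals. Of the classes drawn, PECAM1 cells stand highest after thinning (9.63%) and AMHR2 cells lowest (1.87%). The class widened with INHBB cells, chosen after the values were seen, lies at 3.97%.

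For genes outside the rule, members of a class were compared with cells of the same class that had 0 UMIs of the 5 genes and of the germ cell genes and lay within the members' range of depth. Genes with at least 20 CPM in either group were compared. A gene was called higher or lower when the log2 ratio of the summed levels, with 10 CPM added to each, reached 1 in size in the pool and in each barcode ending with at least 20 cells of both groups. In the COL1A1 class (149 against 1663 cells, median 7605 and 5239 UMIs) 234 of 6664 genes were called higher (3.51%) and 3 lower (0.045%), and the median log2 ratio over all of them was -0.0015. Since the rule picked the members by cell cycle genes of this same contrast, what follows is a description of the cells it found.

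G2 and mitosis genes had a higher median than any other list. All 24 of those compared were higher in proliferating COL1A1-class cells, with a median log2 ratio of 3.43. TOP2A, the topoisomerase that untangles sister chromatids, stood at 1201 CPM (1146 to 1257) against 21.0 CPM (18.3 to 24.0), a log2 ratio of 5.29, and it was 4.72 under ending 1 and 5.60 under ending 2. It was found in 143 of 149 proliferating cells and in 188 of 1663 others. UBE2C, which feeds ubiquitin to the anaphase-promoting complex, stood at 633 CPM against 11.0 CPM (log2 ratio 4.94). ASPM, which focuses spindle poles, had a log2 ratio of 4.82, PRC1, which bundles midzone microtubules, 4.34, and CDC20, the activator of the anaphase-promoting complex, 3.99. TPX2 (3.99), SGO2 (3.87), CENPE (3.83), NUF2 (3.81) and CDCA3 (3.76), which act in spindle assembly, cohesion, the kinetochore and mitotic entry, completed the 10 with the highest ratios.

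S phase genes differed less. Of 22 compared, 13 were called higher and none lower, with a median of 1.34. TYMS, which makes thymidylate for DNA, stood at 325 CPM (297 to 355) against 21.8 CPM (log2 ratio 3.40), and RRM2, a subunit of ribonucleotide reductase, at 247 against 18.7 CPM (3.16). PCNA, the sliding clamp of DNA polymerase, was also common in cells outside the rule, at 306 CPM (279 to 335) against 103 CPM (96.8 to 109), and its log2 ratio was 1.48. MCM2, of the replicative helicase, had 1.04. The cyclins of the G1 to S step, CCNE1 and CCNE2, had 0.79 and 1.06 and were not called, since CCNE1 was at 0.11 with barcodes ending in 1 and CCNE2 at 0.94 with barcodes ending in 2.

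Regulators and chromatin genes showed the same order. Among 8 transcription factors of the cycle, 4 were higher: FOXM1 (76.8 against 1.46 CPM, log2 ratio 2.92), E2F8 (2.84), MYBL2 (2.53) and E2F7 (1.95). FOXM1 and MYBL2 switch on mitotic genes, and E2F7 and E2F8 are repressors of the E2F family. RB1, the brake on E2F factors, had 0.38. Of 11 chromatin and tubulin genes all 11 were higher, led by HMGB2, a chromatin protein, at 1460 CPM (1400 to 1522) against 112 CPM (log2 ratio 3.59). H2AFZ, a histone variant, had 1.65 and STMN1, a tubulin-binding protein, 1.75. None of 6 G1 cyclins, kinases and MYC genes was called, with CDK4 at 0.37 and MYC at -0.18.

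The list of CDK inhibitors and arrest genes divided. CDKN3 (152 against 3.20 CPM, log2 ratio 3.61), CDKN2C (112 against 9.13 CPM, 2.68) and CDKN2D (78.1 against 9.61 CPM, 2.17) were higher, and the other 6 compared were not called. CDKN2C and CDKN2D are inhibitors of CDK4 and CDK6, and CDKN3 is a phosphatase that acts on CDKs in late cycle. CDKN1A (p21) stood at 91.9 CPM (77.3 to 108) against 79.8 CPM (74.5 to 85.5), and CDKN1B (p27) at 95.8 against 63.5 CPM. CDKN3, CDKN2C and CDKN2D are the 3 of this list called higher in the AMHR2, PECAM1 and UPK3B comparisons too.

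**Figure D3:**
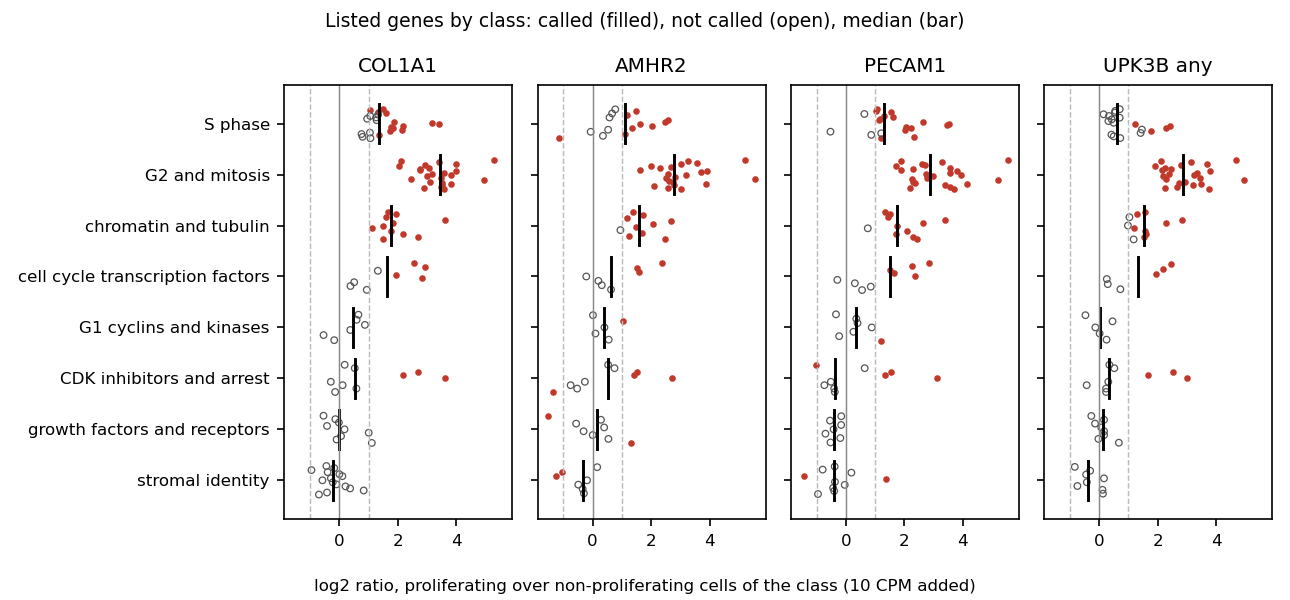
Log2 ratio of proliferating over non-proliferating cells (horizontal, 10 CPM added) for the genes of 8 lists in 4 classes, 1 point a gene, filled when called and open when not, with the median as a bar and dashed lines at -1 and 1. G2 and mitosis genes lie to the right in every class (medians 3.43, 2.79, 2.86 and 2.87), S phase genes less far, and stromal identity genes near 0.

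Of the 234 genes called higher in the COL1A1 class, 55 were on the cell cycle lists used here, which had 80 genes compared. The other calls were not sorted by function. Beyond the cycle, likeness of proliferating and other COL1A1-class cells is therefore described only for the lists named below. The 15 genes of stromal identity had a median log2 ratio of -0.23 and 0 calls in either direction. DLK1, a non-canonical Notch ligand of fetal stroma, stood at 609 CPM (570 to 649) against 609 CPM (594 to 624), and PDGFRA, a growth factor receptor of mesenchyme, at 63.0 against 58.0 CPM. TCF21, a transcription factor of gonadal mesenchyme, stood at 314 CPM (287 to 344) against 474 CPM (461 to 488), a log2 ratio of -0.58. PTCH1, the Hedgehog receptor and a target of that pathway, had 0.83, at 0.01 under ending 1 and 1.04 under ending 2.

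Only RGS5, PLK3 and MVP were lower in both endings. RGS5, a damper of G protein signalling known from pericytes, stood at 57.8 CPM (46.3 to 71.2) against 174 CPM (166 to 182), with log2 ratios of -1.94 and -1.32 by ending. It was found in 24 of 149 proliferating cells and in 389 of 1663 others, and 1 proliferating cell held 22.7% of its UMIs. The other pericyte genes compared were not called, with NOTCH3 at 0.15 and ACTA2 at 0.40. PLK3, a stress-responsive kinase, stood at 7.22 against 31.3 CPM, and MVP, the major vault protein, at 8.53 against 32.4 CPM.

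Growth factors and their receptors gave 0 calls among 9 compared. IGF2, the fetal insulin-like growth factor, was in 144 of 149 proliferating cells at 1366 CPM (1308 to 1426) against 1994 CPM (1966 to 2021), a log2 ratio of -0.54. PTN, a heparin-binding growth factor, stood at 488 CPM (454 to 525) against 221 CPM (212 to 230). Its log2 ratio was 1.49 with barcodes ending in 1 and 0.81 in the others, so it was not called. Immediate early and heat shock genes, 12 compared, and interferon response genes, 12 compared, had medians of -0.17 and -0.24 and no calls.

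The endings differed in genes of stromal subsets, whose lists were written from earlier results of these same cells. In proliferating COL1A1-class cells POSTN, a matricellular protein, stood at 1011 CPM with barcodes ending in 1 and 71.5 CPM in the others, beside 998 and 136 CPM in non-proliferating cells. WFDC1, a secreted protease inhibitor, stood at 42.9 and 468 CPM, beside 41.4 and 163 CPM. Its log2 ratio was therefore 0.04 with barcodes ending in 1 and 1.47 in the others. SPON2, an extracellular matrix protein of the same list, went the other way, with -0.32 and -1.40. Neither was called.

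In the AMHR2 class, 15 members were compared with 89 cells (median 27718 and 17048 UMIs), in the pool alone because 14 of the 15 have barcodes ending in 2. Of 6876 genes 312 were higher (4.54%) and 302 lower (4.39%), with a median over all of 0.014. All 22 G2 and mitosis genes compared were higher with a median of 2.79, among them UBE2C at 677 CPM (600 to 761) against 4.77 CPM, where 1 cell held 41.3% of the UMIs. S phase genes had 8 of 15 higher and 1 lower, CCNE2, at 4.82 against 22.6 CPM.

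Granulosa genes differed in both directions, and the INHBB and LYPD1 lists among them were drawn from these same cells, so their counts are not independent evidence. INHBB stood at 510 CPM (444 to 584) against 16.1 CPM (10.6 to 23.4), a log2 ratio of 4.32, and was found in 12 of 15 proliferating cells and 13 of 89 others. No cell held more than 25.5% of its UMIs. CYP19A1, the aromatase that makes estrogen, stood at 157 CPM (121 to 200) against 3.57 CPM, in 8 of 15 cells against 2 of 89. FST, the activin-binding protein follistatin, stood at 419 CPM (359 to 486) against 76.3 CPM (63.6 to 90.7), a log2 ratio of 2.31. INHA and IHH were chosen after their values were seen. INHA, the inhibin α subunit, had 1.64. IHH, a Hedgehog ligand of granulosa cells, had 27 UMIs in 4 of the 15 cells, 63.0% of them in 1 cell, and 0 UMIs in the 89 others, which allows up to 1.79 CPM. CRHBP, a binding protein of corticotropin-releasing hormone, stood at 970 CPM (878 to 1070) against 289 CPM, and NR5A2, a nuclear receptor of granulosa cells, at 135 against 14.9 CPM.

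LYPD1, CBLN2 and RGS4, a granulosa list that holds 2 genes the study picked from these cells, were all lower. LYPD1 stood at 12.04 CPM (3.91 to 28.1) against 162 CPM (143 to 183), a log2 ratio of -2.96, in 4 of 15 cells against 50 of 89. CBLN2, a secreted synaptic organiser, stood at 4.82 CPM in 1 cell of 15 against 139 CPM in 49 of 89, 28.9-fold lower (7.92 to 240.4, exact counting interval). NR1H4, the bile acid receptor FXR, had 1 UMI against 200, 49.5-fold lower (8.78 to 1964). RDH10, which makes retinaldehyde on the way to retinoic acid, stood at 24.1 against 342 CPM with a log2 ratio of -3.37. S100A6 (-3.17), SULF1 (-3.14) and ADIRF (-2.92) were also among the 10 lowest, with WFDC2 at 2 UMIs against 222. THRB, a thyroid hormone receptor, had 0 UMIs in the 15 cells, which allows up to 7.22 CPM, and 67.3 CPM in the others. INSL3, a hormone of steroidogenic cells, also had 0 UMIs, and 1 reference cell held 99.3% of its UMIs. IGF2 had -1.52, GADD45B, a stress-response arrest gene, -1.35, and WNT6, a Wnt ligand, -1.19. Identity genes without a call included KITLG, the ligand of KIT on oocytes (132 against 178 CPM), and BMP2 (69.8 against 66.7 CPM).

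These values rest on few cells. All 15 members and all 89 others had more than 3000 detected genes, above the upper limit that the study set. Mitochondrial UMIs had a median of 11.9% in the 15 members and 15.1% in the 89 others. At most 10% was found in 5 of the 15 and 6 of the 89, and with such cells alone the log2 ratio of FST, AMHR2 class, was -0.48 and that of CBLN2 0.12. Its part in the result was not tested. In the class widened with the INHBB cells, 37 were compared with 467, 285 of 6789 genes were higher (4.2%) and 251 lower (3.7%). INHBB helped choose these cells and is not read there. It had a UMI in 34 of the 37 and in 77 of the 467. The 22 added cells were described above with their CYP19A1 and FST before this comparison. Levels in the widened class are therefore partly set by that choice and are not independent evidence for the 15 cells. CYP19A1 stood at 251 CPM (216 to 291) against 7.63 CPM in it, in 23 of 37 cells against 17 of 467. FST stood at 569 against 92.0 CPM and LYPD1 at 8.47 against 170 CPM. Since 35 of the 37 have barcodes ending in 2, and LYPD1 in the 467 others stood at 5.09 CPM under ending 1 and 195 CPM under ending 2, the ratios were also taken within ending 2. There they were 3.88 for CYP19A1, 2.56 for FST and -3.45 for LYPD1.

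**Figure D4:**
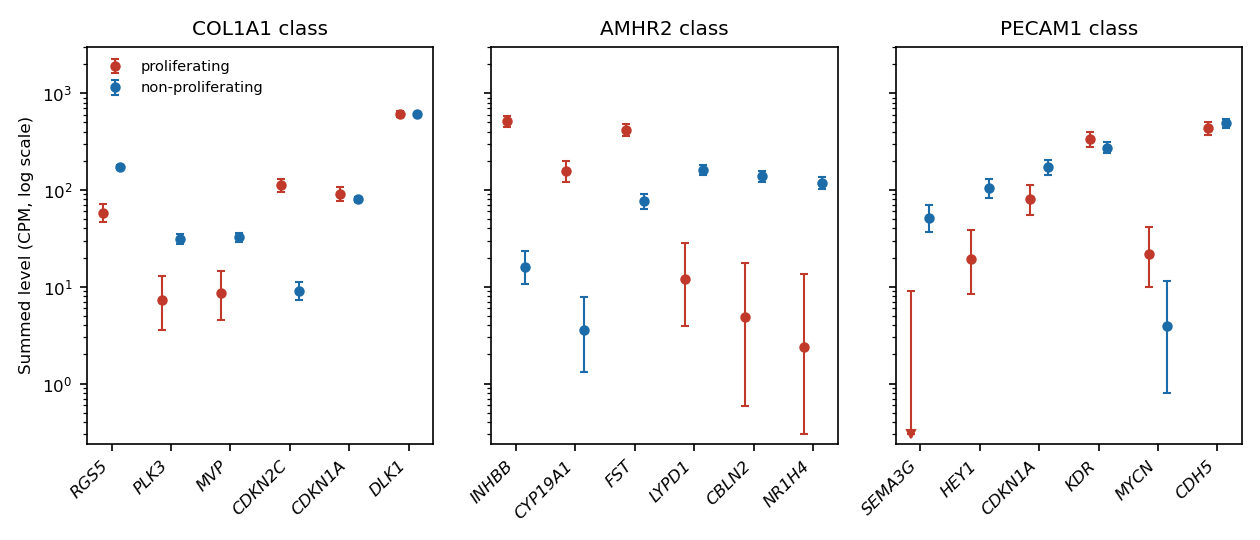
Summed level (vertical, CPM, log scale) of genes named in the text in proliferating (red) and non-proliferating (blue) cells of the COL1A1, AMHR2 and PECAM1 classes, with exact 95% Poisson intervals; a triangle at the lower edge marks 0 UMIs. INHBB, CYP19A1 and FST stand higher and LYPD1, CBLN2 and NR1H4 lower in the 15 proliferating AMHR2-class cells, while DLK1 stands at 609 CPM in both groups of the COL1A1 class.

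In the PECAM1 class, 27 members were compared with 64 cells (median 13956 and 11862 UMIs), in the pool and with barcodes ending in 2. Of 6868 genes 295 were higher (4.3%) and 181 lower (2.64%), with a median over all of -0.0048. All 24 G2 and mitosis genes and 15 of 19 S phase genes were higher, with medians of 2.86 and 1.31. TOP2A stood at 643 CPM (567 to 725) against 3.88 CPM (0.801 to 11.3), 165-fold higher (56.0 to 807). SMC2, of condensin, had a log2 ratio of 3.96, at 307 against 10.4 CPM, and CKAP2, a spindle protein, 72 UMIs against 3. MYCN, a MYC family factor, was higher here at 21.9 CPM (10.0 to 41.6) against 3.88 CPM, on 9 and 3 UMIs, 5.64-fold higher (1.41 to 32.4).

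General endothelial genes were not called. Of the panel, 6 were compared and 0 called, with CDH5 at 433 CPM (372 to 502) against 488 CPM (440 to 540), KDR, the VEGF receptor, at 333 against 275 CPM, and TIE1 at 243 against 223 CPM. SEMA3G and HEY1, known from arterial endothelium, were lower. SEMA3G had 0 UMIs in the 27 proliferating cells, which allows up to 7.30 CPM, and 51.8 CPM (37.0 to 70.5) in the others, in 11 of 64 cells. HEY1, a Notch target chosen after its values were seen, stood at 19.5 CPM (8.41 to 38.4) against 105 CPM (83.3 to 130), a log2 ratio of -1.96, in 5 of 27 cells against 23 of 64. CDKN1A was also lower, at 80.3 CPM (55.3 to 113) against 171 CPM (143 to 203), a difference at the limit of a call.

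Contractile and matrix genes were lower too. All 5 pericyte genes compared were called, and the panel stood at 144 CPM in the proliferating and 812 CPM in the other PECAM1-class cells. RGS5 stood at 92.5 CPM (65.5 to 127) against 346 CPM (306 to 390), in 4 of 27 cells against 32 of 64. Other genes rest wholly or largely on a single reference cell. That holds for JCHAIN and MZB1, of antibody-secreting cells, with 99.5% and 98.1% of the reference UMIs in 1 cell, for MGP with 90.6%, for ACTA2, smooth muscle actin, with 66.3%, for TAGLN with 50.4% and in part for POSTN with 44.4%. The part of pericyte or plasma cell RNA in the reference was not tested. FBLN5, ALDH1A3 and POSTN had 0 UMIs in the proliferating cells and 71.2, 49.2 and 46.6 CPM in the others. TAGLN, an actin-binding protein of smooth muscle, had a log2 ratio of -2.58 and SERPINE2, a protease inhibitor, -2.43.

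Fewer genes were called higher in UPK3B cells than in the other classes, but the call rules differed. Both barcode endings had to agree here and in the COL1A1 class, but only ending 2 in the PECAM1 class and none in the AMHR2 class. On pooled sums alone, 190 genes were higher and 23 lower in UPK3B cells, and 310 and 16 in the COL1A1 class. Those pooled counts were 312 and 302 in the AMHR2 class and 319 and 213 in the PECAM1 class. In 48 against 133 cells (median 15837.5 and 9562 UMIs), 154 of 6717 genes were higher (2.29%) and 8 lower (0.119%), and the median over all was 0.065. All 24 G2 and mitosis genes were higher with a median of 2.87, while 4 of 18 S phase genes were, with a median of 0.63. The highest were UBE2C (4.94), TOP2A (4.68) and ASPM (4.41). The 8 lower genes were ALDH1A1, a retinaldehyde dehydrogenase (14.3 against 75.4 CPM, log2 ratio -1.82), SPARCL1 (-1.46), the complement gene C3 (-1.43), LY6H (2 UMIs against 34), ITLN1, a lectin of mesothelium (-1.22), POSTN (-1.14), IGFBP5 (-1.14) and CKB (-1.11). IGFBP5, an IGF-binding protein, stood at 367 CPM (328 to 408) against 819 CPM (775 to 865). KRT19, a keratin of the surface epithelium, stood at 963 against 1226 CPM and MSLN, mesothelin, at 545 against 997 CPM, and neither was called.

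Across the COL1A1, AMHR2, PECAM1 and UPK3B comparisons, 110 genes were called higher in all 4, and 37 of these are on the cell cycle lists used here. Those lists held 68 to 80 of the 6664 to 6876 genes compared in each class. The same rule genes picked the members of all 4, so shared calls of cell cycle genes were built in. Of the genes higher in UPK3B cells, 93.5% were also higher in the COL1A1 class, and these made up 61.5% of that class's calls. The AMHR2 and COL1A1 classes shared 145, which is 46.5% and 62.0% of each. No gene was called lower in all 4. RGS5 was lower in the COL1A1, AMHR2 and PECAM1 classes (-1.44, -2.05 and -1.80) and had -0.42 in UPK3B cells.

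Proliferating COL1A1-class and AMHR2-class cells were also compared with each other. With 149 against 15 cells, 600 of 6995 genes were higher in the COL1A1 class (8.58%) and 488 lower (6.98%). Most named differences follow the lineage genes that set the classes. OLFML3 (389 CPM), THY1 (358 CPM), LUM (270 CPM), CXCL12 (249 CPM) and HTRA3 (217 CPM) had 0 UMIs in the 15 AMHR2-class cells, which allows up to 7.22 CPM. DLK1 (609 CPM), C7 (423 CPM) and OGN (362 CPM) had 1 UMI each in those 15 cells, and DLK1 was 253-fold higher (45.3 to 10000). COL1A2 stood at 1168 against 33.7 CPM. HBB headed this list through 1 COL1A1-class cell with 96.2% of its UMIs. MYL7, CRHBP, INHBB, NR5A2, GREB1, CYP19A1, DSP, CDH3, FAM78A and ADGRG1 were the 10 highest in the AMHR2 class, with log2 ratios of -3.54 to -2.94 besides MYL7, a myosin light chain, at 3 UMIs against 65, and 1 cell held 58.5% of the MYL7 UMIs.

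Among cell cycle genes the COL1A1 class stood higher in 11 of 22 S phase genes compared and in 5 of 24 G2 and mitosis genes, with medians of 1.02 and 0.62. No gene of either list was called higher in the AMHR2 class. TYMS, RRM2 and PCNA had the levels given above in the COL1A1 class, and PCNA stood at 132 CPM (99.8 to 172) in the AMHR2 class. Of the rule genes, MKI67 stood at 549 CPM (512 to 587) in the COL1A1 class and 195 CPM (155 to 242) in the AMHR2 class, while CENPF stood at 1032 (981 to 1084) and 997 CPM (903 to 1098). The classes differ in depth as well, with medians of 7605 and 27718 UMIs, so that the same UMIs per 10000 are reached by more counts in the AMHR2 class.

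Within single cells, UMIs of the S phase list exceeded those of the G2 and mitosis list in 92 of 363 members (25.3%, 20.9 to 30.1), with 64 cells within 0.5 of equal on the log2 scale. The share was 41 of 149 in the COL1A1 class (27.5%, 20.5 to 35.4), 11 of 27 in the PECAM1 class (40.7%, 22.4 to 61.2), 8 of 48 in UPK3B cells (16.7%, 7.48 to 30.2) and 2 of 15 in the AMHR2 class (13.3%, 1.66 to 40.5). These intervals overlap one another. In the 1042 cells with 3 or more germ cell UMIs that met the same proliferation criteria, it was 485 (46.5%, 43.5 to 49.6), above the interval of the members. Of these cells 387 lay within 0.5 of equal, so the share depends on where the line is drawn. The S phase list stood at 1588 CPM in the members and 3198 CPM in those cells, and the G2 and mitosis list at 4798 and 3671 CPM. Both groups were picked by the 5 rule genes, several of which act in late cycle or mitosis, so these shares are partly set by the rule. Summed, the rule genes stood at 1935 CPM in the members and 1329 CPM in the 1042 cells. Median depth differed as well, at 9132 and 16110.5 UMIs. The part of the rule genes and of depth in the result was not tested.

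**Figure D5:**
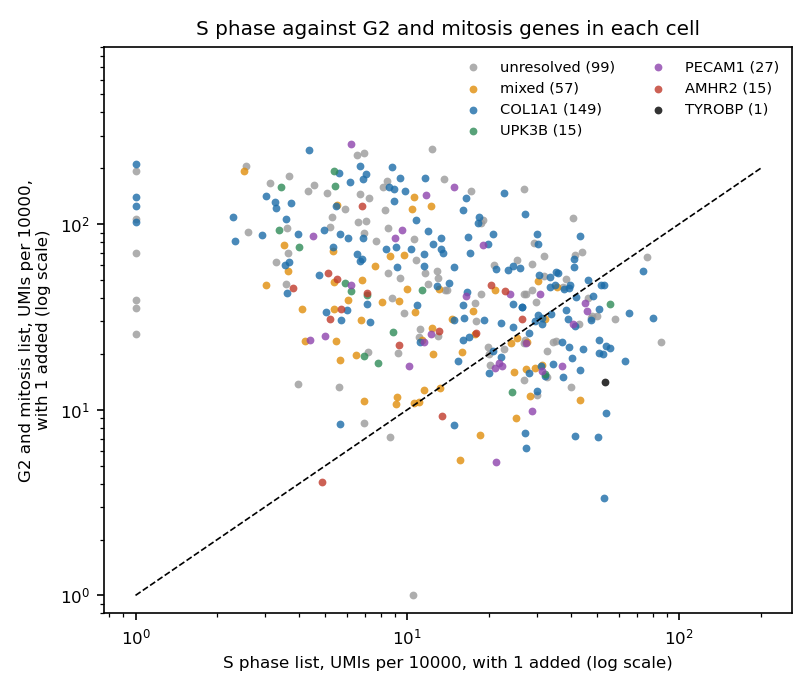
UMIs of the G2 and mitosis list (vertical) against the S phase list (horizontal), each per 10000 UMIs with 1 added and on a log scale, 1 point for each of the 363 members, coloured by class. Cells right of the dashed line of equality have more S phase than G2 and mitosis UMIs, 92 of 363.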

How the data were processed

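The authors made the deposited table of raw UMI counts per gene and cell by aligning to genome Macaca_fascicularis_5.0 in Cell Ranger 3.0.2 and importing into Seurat, and it holds 18446 genes and 20967 cells. Whole ovaries of 1 fetus at E84 and 1 at E116 were digested and captured with 3′ chemistry. No removal of doublets or of free RNA is stated. The members and gene lists were chosen with earlier results of these data known.

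Cells were chosen and classed as stated in the report, with at least 5 UMIs and 5 per 10000 for COL1A1 and at least 2 UMIs for AMHR2, UPK3B, PECAM1 and TYROBP, and with UPK3B taking cells that also passed for AMHR2. Reference cells lay between the 5th and 95th percentile of the members' UMIs. The 13 genes of the rule were left out of comparisons. Genes were named when listed, or when among the 10 highest or lowest calls with a symbol in the 2 largest single-gene classes, COL1A1 and PECAM1, and between proliferating COL1A1-class and AMHR2-class cells, and by the same rule in the AMHR2 class and UPK3B cells. Genes outside this rule are said to be chosen after their values were seen. A count of 0 allows up to 3 counts. Of 261 listed genes, 239 are in the table. Scrublet in scanpy 1.11.5 called 0 doublets, too few to rely on, and no doublets were removed. The scripts used pandas 2.3.3, scipy 1.17.1, numpy 2.4.6 and matplotlib 3.10.9 under Python 3.11.15, and functions were tested on simulated data. Alternatives were other limits on genes, mitochondrial UMIs, germ cell UMIs and doublet scores, other lineage rules, depths of thinning, added CPM and filters. Sequences and the promoter comparison were not used here. No column of per-sample values was left unused.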

Additional observations from a re-analysis of the deposited data

Results flagged for a closer look

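CD52, SERPINE2, CCNE2 and SHISA2 were called in opposite directions in the AMHR2 and PECAM1 classes, and the difference between the classes was not tested. SERPINE2, a secreted protease inhibitor, had a log2 ratio of 2.22 in the AMHR2 class (1406 CPM, 1294 to 1525, against 294 CPM) and -2.43 in the PECAM1 class (34.1 against 228 CPM). It was detected in 15 of 15 proliferating AMHR2-class cells and in 10 of 27 proliferating PECAM1-class cells. CCNE2, a cyclin of S phase entry, had -1.14 in the AMHR2 class, on 2 against 38 UMIs (4.70-fold lower, 1.21 to 40.2). In the PECAM1 class CCNE2 had 1.20, on 9 against 3 UMIs (5.64-fold higher, 1.41 to 32.4). SHISA2 had -1.49 in the AMHR2 class (9.63 against 45.3 CPM) and 1.28 in the PECAM1 class (58.4 against 18.1 CPM), where 1 cell held 83.3% of the UMIs. CD52, a leukocyte surface protein, had 1.90 in the AMHR2 class, where all 16 UMIs lay in 1 of the 15 cells, and -1.38 in the PECAM1 class (9.74 against 41.4 CPM).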

How the results depend on the processing

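Of 209 recomputed counts, shares and share ratios, 147 stayed within the reported interval or within 1.5 times the reported count, 62 moved and 0 reversed. Of 1663 ratios of called single genes 1660 kept their sign, and the cause of the other 3 was not tested. With 200 to 3000 genes per cell, 183 members remained, 48.1% in the COL1A1 class and 0% in the AMHR2 class (log2 share ratio 3.32). Genes lower in the COL1A1 class were then 40, and genes higher and lower were 1621 and 1983 in the PECAM1 class and 1540 and 1789 in UPK3B cells, and no AMHR2-class count could be made. This limit took out 22 of 27 PECAM1-class members and 42 of 48 UPK3B members, so the counts of those classes rest on few cells. With at most 10% mitochondrial UMIs, the shares were 51.6% and 1.98% (0.0985). Lower genes were 1 in the COL1A1 class, 30 in UPK3B cells and 923 in the COL1A1 against the AMHR2 class, the AMHR2 class had 1149 higher and 1096 lower, CBLN2 in that class was at 0.12 and FST at -0.48. With 1 germ cell UMI allowed, 5 genes were lower in UPK3B cells. Without the 8% highest Scrublet scores, lower genes were 5, 279 and 3 in the COL1A1, PECAM1 and UPK3B comparisons. Low lineage minima gave 484 higher and 578 lower in the AMHR2 class and 14 lower in UPK3B cells. Lineage from marker panels, here with no minimum of 3 detected genes, put 12.1% in the COL1A1 class, with lower genes at 54, 529, 68 and 65 in the COL1A1, AMHR2, PECAM1 and UPK3B comparisons, 957 higher and 744 lower between the COL1A1 and AMHR2 classes, and HBB there at -2.69. The mean of CPM of single cells gave 6 lower in the COL1A1 class. Adding 1 CPM gave 23, 375, 31 and 749 lower in the COL1A1, PECAM1, UPK3B and COL1A1 against AMHR2 comparisons, and 508 higher and 495 lower in the AMHR2 class. Adding 50 CPM gave 106 and 0, 105 and 61, 93 and 20, 63 and 1, and 174 and 146 higher and lower in the COL1A1, AMHR2, PECAM1, UPK3B and COL1A1 against AMHR2 comparisons.

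Alternatives chosen after seeing the data were these. The AMHR2 class widened with INHBB cells held 10.2% (share ratio 0.34). Calls on pooled sums gave 16 lower in the COL1A1 class and 23 in UPK3B cells. Barcodes ending in 1 gave 134 members, 0.746% in the AMHR2 class, a share ratio of 2.56, 84 lower in the COL1A1 class, and 284 higher and 94 lower in UPK3B cells. Barcodes ending in 2 gave 229 members, 32 lower in the COL1A1 class, and 242 higher and 56 lower in UPK3B cells. No paired analysis was possible because the cells are not tied to a stage and no result comes from a test. The intervals leave out the spread between animals, and 15 AMHR2-class members with 415308 UMIs limit that class.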

Other observations

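In the AMHR2 and PECAM1 classes, 19 genes were called lower in proliferating cells of both, 6.29% of the 302 lower in the first and 10.5% of the 181 lower in the second. Over all genes compared, 4.39% were lower in the AMHR2 class and 2.64% in the PECAM1 class. Those named here were chosen after their values were seen. NR4A2, an immediate early nuclear receptor, had log2 ratios of -1.51 and -1.70, and 0.35 in the COL1A1 class. JAG1, a Notch ligand, had -2.20 and -1.32, and 0.11 in the COL1A1 class. PDGFRB, a receptor of mesenchyme and pericytes, had -1.24 and -1.44, and 1 proliferating PECAM1-class cell held 66.7% of its 9 UMIs. NOTCH3, a receptor known from pericytes, had -1.53 and -1.78. The pericyte panel stood at 144 CPM in proliferating and 812 CPM in other PECAM1-class cells. In the AMHR2 class the panel stood at 320 CPM in proliferating and 1063 CPM in the other cells. The part of pericyte RNA in the result was not tested. POSTN had -1.02 in the AMHR2 class and -1.14 in UPK3B cells, where it was called lower, and -0.12 in the COL1A1 class.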
